A study of Mus musculus with 36 samples.

Results

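Choroid plexus transcripts were followed through 36 RNA-seq libraries of mouse hypothalamus. The set holds 10 genes chosen by name as markers of the choroid plexus epithelium: Ttr, Kl, Folr1, Clic6, Aqp1, Slc4a5, Otx2, Sostdc1, Tmem72 and Calml4. All 10 were among the 24265 genes of the deposited count table, and all 10 passed the expression filter that left 20053 genes for testing. The mice were of 3 inbred strains, the obese, diabetes-prone NZO/HlLtJ, the wild-derived CAST/EiJ and the laboratory standard C57BL/6J, all labelled wild type and otherwise untreated. They ate a high-fat, high-sugar (HFHS) diet with 44% fat or a control diet with 10% fat, both with fiber, from the age of 6 weeks, and hypothalami were taken at 15 weeks. Each of the 12 combinations of strain, diet and sex had 3 libraries, so each strain on each diet had n = 6, and each strain n = 12.

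The choroid plexus is the folded epithelium inside the brain ventricles that secretes cerebrospinal fluid. Its cells make transthyretin in very large amounts and carry folate, ions and water across to the fluid. The third ventricle, which runs between the 2 sides of the hypothalamus, has choroid plexus in its roof.

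Library totals ran from 23.9 to 47.3 M counts. Levels are given as CPM, counts scaled to the library total, and 3 counts stood for 0.0635 CPM in the deepest library and 0.126 CPM in the shallowest. The level of a list of 20 hypothalamic genes summed to between 703.9 and 2274 CPM, and that of 10 neuronal genes to between 5100 and 5492 CPM, so the labelled tissue was visible in all 36 libraries. A pituitary-rich library stood apart, CAST/EiJ control female library 1, with 2781 CPM summed over 8 genes of a pituitary list against 256.4 to 565.6 CPM in the other 35. That list names Pou1f1, Pitx1 and Chgb beside hormone genes. Library numbers follow the order of deposition, and the labels do not say whether libraries of a group came from separate animals or pools, so p-values measure the spread between these libraries.

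The 10 transcripts spanned a wide range of levels. Per length of their annotated exons, in TPM, which scales counts by exon length as well as by library, the median over 36 libraries was 30.7 for Tmem72, 25.7 for Clic6, 4.998 for Kl, 2.34 for Sostdc1, 2.34 for Calml4, 2.05 for Ttr, 1.52 for Otx2, 0.893 for Folr1, 0.872 for Aqp1 and 0.0964 for Slc4a5. Tmem72 and Clic6 overlapped in range, at 21.8 to 71.2 and 9.14 to 33.1 TPM, and Kl, Sostdc1, Calml4, Ttr, Otx2, Folr1 and Aqp1 each overlapped with the next in that order. Ttr, in choroid plexus cells far above the others, stood here below Tmem72, Clic6, Kl, Sostdc1 and Calml4 at the median. Over the 45 pairs of the 10 genes, the correlation of log2 CPM after removing each group's mean ran from -0.43 to 0.62 with a median of 0.03, over 36 libraries that share their depth. The highest value was for Ttr with Slc4a5, and 1 of the 45 pairs was above 0.5. The names are markers of choroid plexus, but Tmem72, Clic6 and Kl did not go up and down with Ttr across these libraries.

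**Figure D1:**
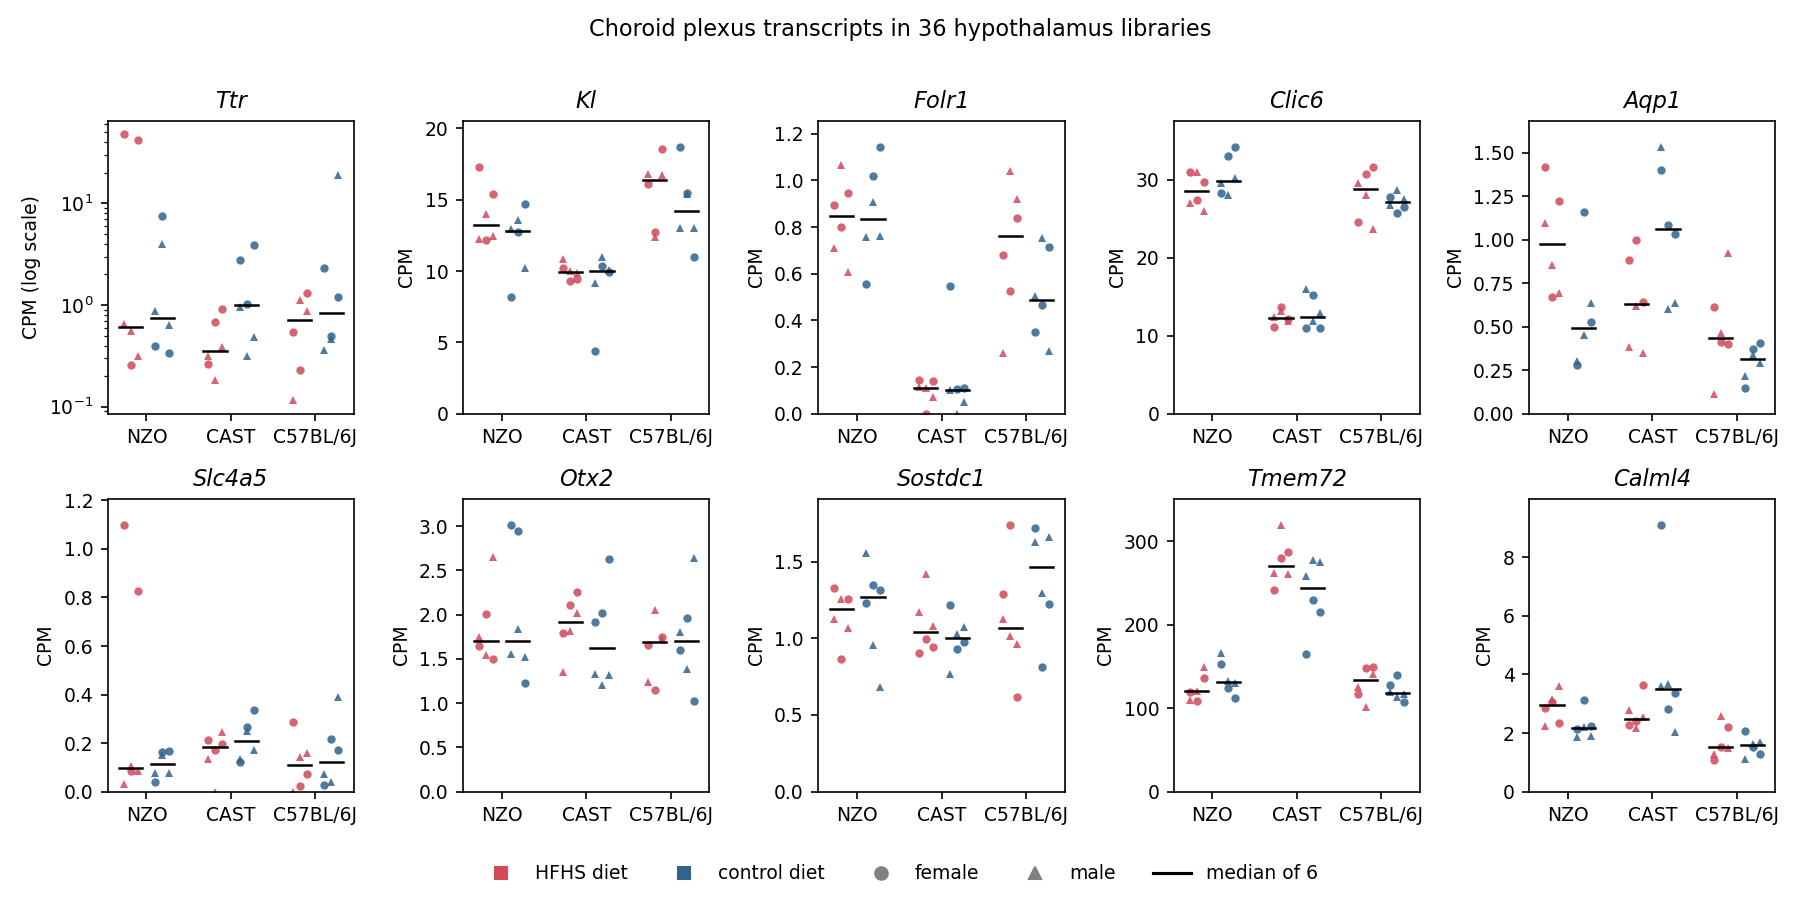
CPM of each transcript (Ttr on a log axis, the others on linear axes from 0) by strain and diet, with HFHS left of control in each strain, circles for females, triangles for males and a bar at the median of 6 libraries. Clic6 and Folr1 lie low and Tmem72 lies high in CAST/EiJ, and Ttr is high in 3 libraries, 2 of them among the 3 NZO/HlLtJ HFHS females.

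Ttr encodes transthyretin, the carrier of thyroxine and of the retinol-binding protein. It was low in most libraries and high in a few. In NZO/HlLtJ on HFHS, Ttr was at 48.4 CPM in female library 1 and 42.2 CPM in female library 3, whereas the other 4 libraries lay between 0.259 and 0.651 CPM. In C57BL/6J on control diet, male library 3 had 19.1 CPM and the other 5 libraries had 0.361 to 2.30 CPM. The high pair made up 2 of the 3 NZO/HlLtJ HFHS female libraries, whose median was 42.2 CPM. No other library passed 10 CPM, and the lowest of the 36 was at 0.116 CPM, in C57BL/6J on HFHS.

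The strain medians of Ttr lay close together, at 0.642 CPM in NZO/HlLtJ, 0.586 CPM in CAST/EiJ and 0.710 CPM in C57BL/6J. The means were 8.85 ± 17.2, 1.02 ± 1.14 and 2.35 ± 5.32 CPM in the same 3 strains (SD, n = 12 each), with each SD above its mean. After removal of group means, the SD of Ttr on the log2 scale was 1.86, at the 99.9th percentile of all tested genes. In a bulk library, fewer cells of a type and less RNA per cell cannot be told apart.

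Slc4a5, which encodes a sodium bicarbonate cotransporter of the epithelium's ventricular face, was the member whose levels went most with those of Ttr. It had 1.098 and 0.826 CPM in NZO/HlLtJ HFHS female libraries 1 and 3, from 38 and 27 counts. In the other 4 libraries of NZO/HlLtJ on HFHS it had 0.0296 to 0.107 CPM. In C57BL/6J control male library 3 it had 0.390 CPM, against 0.0291 to 0.218 CPM in the other 5 of that strain and diet. The 3 libraries richest in Ttr were thus also the 3 highest in Slc4a5. The within-group spread of Slc4a5 was at the 98.2nd percentile of all tested genes.

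A promoter window of Slc4a5, at an internal start of the gene, is shown because it is the member whose levels went most with Ttr. Sequences are RefSeq windows of assembly GRCm38.p6, from 250 bases before to 50 after an annotated start, written 5′ to 3′ in the direction of transcription, here chr6:83237125-83237424 on the plus strand.
Slc4a5: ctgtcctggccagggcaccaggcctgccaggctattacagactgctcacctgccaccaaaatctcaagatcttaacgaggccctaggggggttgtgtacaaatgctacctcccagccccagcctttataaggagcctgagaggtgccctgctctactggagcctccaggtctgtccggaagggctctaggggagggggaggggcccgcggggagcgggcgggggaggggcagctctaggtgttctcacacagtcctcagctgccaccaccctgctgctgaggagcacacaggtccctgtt

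Aqp1, the water channel of the same epithelial face, was also highest in the Ttr-rich pair of NZO/HlLtJ HFHS libraries, at 1.42 and 1.22 CPM against 0.670 to 1.095 CPM in the other 4. In C57BL/6J control male library 3, however, Aqp1 was at 0.293 CPM, inside the 0.146 to 0.408 CPM of the other 5. Its deviation correlated with that of Ttr at 0.42 over the 36 libraries, a description of libraries that share their depth. The remaining 7 members correlated with Ttr by this measure at 0.01 for Tmem72, 0.10 for Clic6 and Folr1, 0.16 for Sostdc1, 0.17 for Kl, 0.27 for Calml4 and 0.29 for Otx2.

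**Figure D2:**
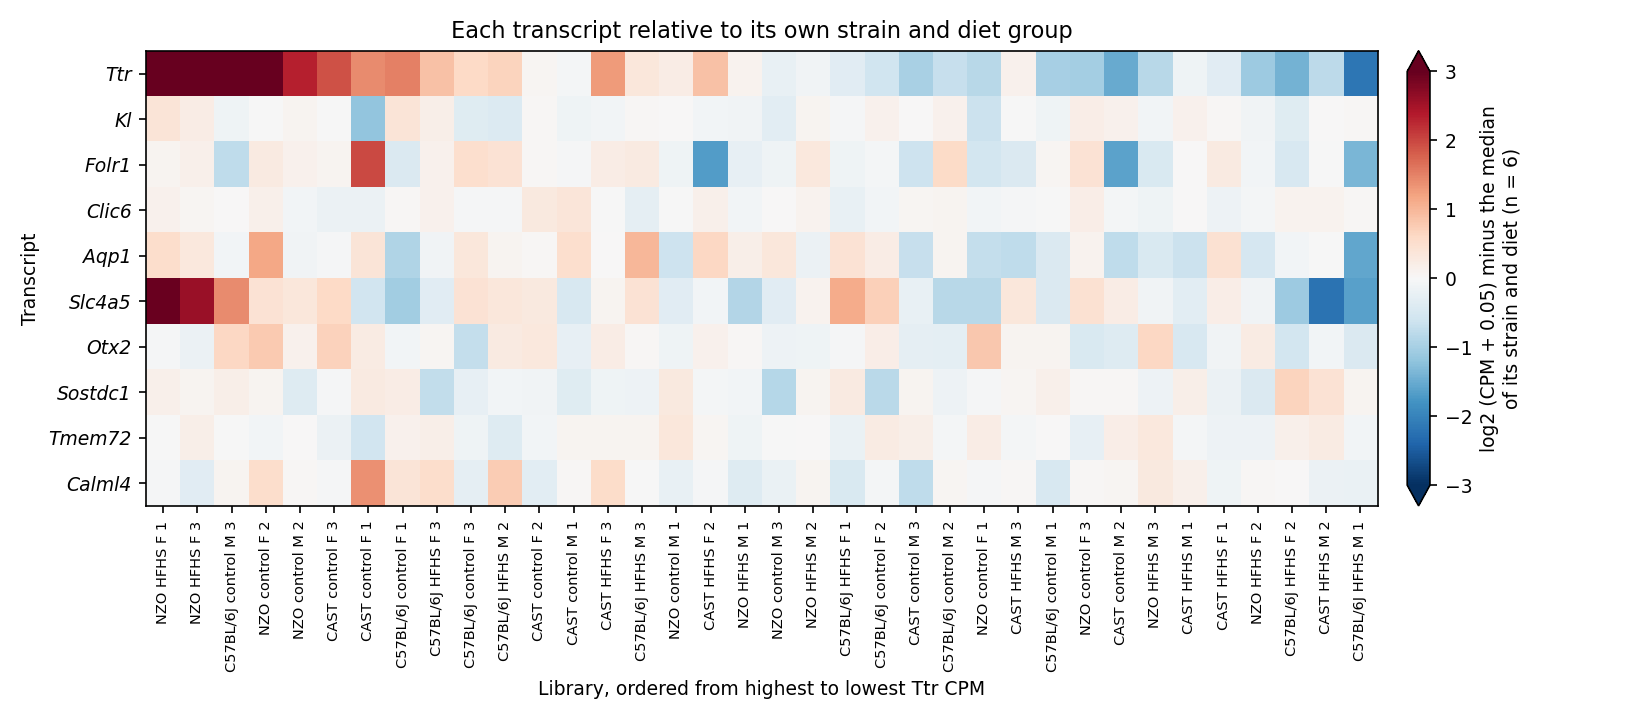
Each of the 10 transcripts (rows) in each of the 36 libraries (columns, ordered from highest to lowest Ttr), coloured by log2 (CPM + 0.05) minus the median of the 6 libraries of the same strain and diet, with colours saturating at 3 on either side. Slc4a5 is dark red with Ttr in the leftmost libraries, while Clic6 and Tmem72 stay pale across the row.

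Within strains, log2 CPM of Ttr was set against that of each other member over 12 libraries, which gave 27 relations tested with 100000 permutations each (two-sided). A single relation passed after Benjamini-Hochberg adjustment over the 27, Slc4a5 in NZO/HlLtJ (Pearson r = 0.88, permutation p = 0.00095, adjusted p = 0.0257). Its Spearman rho was 0.45 (permutation p = 0.14, adjusted p = 0.346), and without the 2 libraries farthest from the median of Ttr r was 0.48, so the relation rests on those libraries. By rank correlation 0 of the 27 passed. Before adjustment, 8 of the 27 Pearson relations had a permutation p under 0.05, and r ran from -0.74 for Tmem72 in CAST/EiJ to that of Slc4a5 in NZO/HlLtJ, with a median of 0.30.

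Of a further list of choroid plexus epithelial genes, 40 were in the table. In NZO/HlLtJ HFHS female libraries 1 and 3, 4 of the 40 in each were over 2-fold above the median of the group's other 4 libraries, as were 2 of the 10 members. In C57BL/6J control male library 3, 2 of the 40 and 2 of the 10 were over 2-fold above the median of the other 5. In all 3 libraries the 2 members were Ttr and Slc4a5. The libraries were picked by their level of Ttr, so its place in these counts was fixed in advance. More modest differences were common in the NZO/HlLtJ pair, where 20 and 22 of the 40 genes were above all of the group's other 4 libraries, whereas 5 of the 40 were above all of the other 5 in the C57BL/6J library. The median ratio over the 40 genes was 1.14, 1.18 and 0.902 in these 3 libraries. The shares of all genes that were over 2-fold above the median, or above all others of the group, were not computed. These counts therefore have no background to be read against.

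Kcne2, a potassium channel subunit of choroid plexus, was at 0.780, 0.336 and 0.488 CPM in those libraries in the same order, against 0.160 to 0.266 CPM in the other 4 NZO/HlLtJ HFHS libraries and 0.0837 to 0.325 CPM in the other 5 C57BL/6J control ones. Kcnj13, an inward rectifier of the epithelium, was at 2.75, 4.40 and 0.451 CPM, against 1.00 to 1.87 CPM and 1.39 to 3.04 CPM in the same others. It was thus above the other NZO/HlLtJ libraries and below the other C57BL/6J ones. Over all 36 libraries the 40 genes summed to between 1213 and 1468 CPM. The 3 Ttr-rich libraries at 1447, 1463 and 1334 CPM lay inside that range. Vat1l alone gave 437.5, 413.6 and 406.6 CPM of these 3 sums, so genes at a low level, such as Kcne2, hardly weigh on them.

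Sums of 4 of the other fixed lists lay outside the range of the other 33 libraries in one or more of the 3. Astrocyte genes summed to 6090 and 6376 CPM in the NZO/HlLtJ pair, against at most 5808 CPM in the other 33. Genes of epithelial ion and water transport summed to 3122 and 3300 CPM in that pair, against at most 3036 CPM. Stromal and leptomeningeal genes summed to 614.4 CPM in NZO/HlLtJ HFHS female library 3, against at most 605.5 CPM, and hypothalamic genes to 703.9 CPM in C57BL/6J control male library 3, against at least 819.1 CPM. Their part in the Ttr values was not tested.

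The mean deviation of the 10 members, which Ttr weighs on most since its spread was the widest, was compared with every other gene. By Pearson correlation the gene most like it was Slc6a5, the glycine transporter of brainstem and spinal inhibitory neurons. It led 13605 ranked genes (r = 0.63 over 36 libraries), ranked 13 by Spearman correlation, where Cdnf led, and without the 3 Ttr-rich libraries its r was 0.49, below that of L3hypdh at 0.59. Slc6a5 was at 9.56, 11.6 and 14.4 CPM in NZO/HlLtJ HFHS female libraries 1 and 3 and C57BL/6J control male library 3. The other 33 libraries lay between 0.0305 and 0.689 CPM. The mean of Slc6a5, 1.25 CPM, passed the ranking's floor of 1 CPM only through those 3 libraries. Its place in the ranking therefore does not stand apart from the Ttr values of the same libraries. The same 3 libraries were therefore highest in Ttr, Slc4a5 and Slc6a5. By the same measure L3hypdh, Cpsf2, Cdnf and Ush1c followed, at r = 0.62, 0.60, 0.59 and 0.57. Next came Slc6a2, Cyp2j6, Topbp1, Scn4b, Ska2, Kif3b, Spata17, Card6, Slc17a7 and Cenpn, from r = 0.56 down to 0.50. L3hypdh was at 3.24, 3.15 and 3.68 CPM in the 3 libraries and 2.13 to 4.58 CPM in the others, without a gap. Of the 31 ranked genes of the further choroid plexus list, 0 were among the 15 most alike and 1, the coagulation factor gene F5, was among the 100 most alike.

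**Figure D3:**
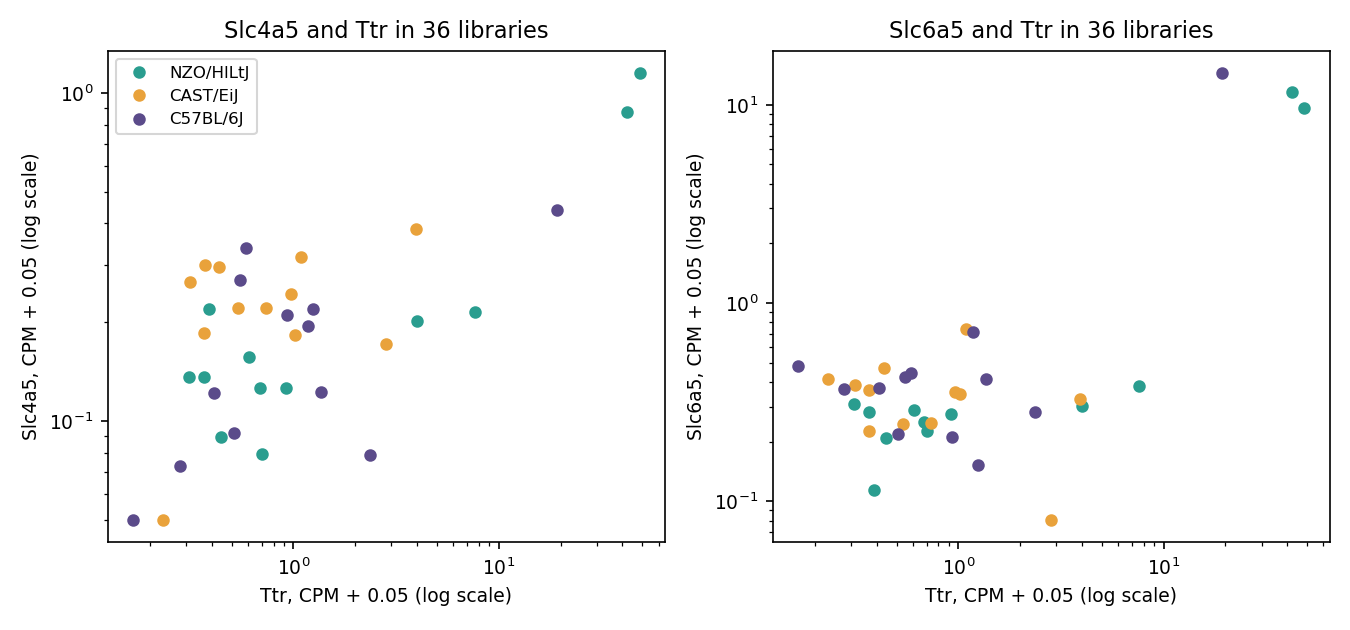
Slc4a5 (left) and Slc6a5 (right) against Ttr in each of 36 libraries, all as CPM + 0.05 on log axes and coloured by strain. The 3 libraries above 10 CPM of Ttr stand at the upper right in both panels, and for Slc6a5 no other library reaches 1 CPM.

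Other genes known from the brainstem and cerebellum were then looked up, in a list chosen after the values of Slc6a5 had been seen. Of 19 listed, 9 were in the table. Slc6a5, which had prompted the list, was higher in each of the 3 Ttr-rich libraries than in every one of the other 33. Dbh and Tph2 were so as well, and the rest of the 9 were not. The share of all tested genes with such a gap was not computed. Dbh, which makes noradrenaline, was at 0.260, 0.398 and 0.683 CPM in the 3 libraries, with at most 0.187 CPM elsewhere. Tph2, the serotonin-synthesis enzyme of the raphe, was at 0.722, 0.917 and 1.00 CPM, with at most 0.599 CPM elsewhere. Fat2, a granule cell cadherin, was at 4.04, 7.43 and 1.71 CPM, with up to 2.66 CPM elsewhere. The 9 genes, none at 0 in these 3 libraries and with most of their sum from Cbln1, summed to 132.5, 138.8 and 126.3 CPM there and to 94.2 to 149.8 CPM in the other 33. The part of such transcripts in the Ttr values was not tested.

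Diet was the study's treatment, and 0 of the 10 transcripts passed the test for it. The edgeR quasi-likelihood test called 0 of 10 members in NZO/HlLtJ, where 0.145% of all tested genes were called at adjusted p under 0.05 (0.105% higher and 0.0399% lower). It called 0 of 10 in CAST/EiJ (0.12% of all genes, 0.0399% higher and 0.0798% lower), 0 of 10 in C57BL/6J (0% of all genes) and 0 of 10 for HFHS minus control averaged over the strains (0.0299% of all genes, all lower). DESeq2 and limma also called 0 in each of the 4. At an unadjusted edgeR p under 0.05 there were 1, 3, 1 and 0 members in these 4 comparisons. Of the 20053 tested genes, 2081, 3460, 687 and 1235 were under it in the same order. The test of a diet change that differs between strains called 0 of 10 (0.115% of all genes), and DESeq2 and limma called 0 as well. In it 3 members had an unadjusted edgeR p under 0.05, as did 2999 of the 20053 tested genes.

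Aqp1 had diet differences of opposite sign in the strains, none past the threshold. In NZO/HlLtJ its lowest, median and highest values were 0.670, 0.975 and 1.42 CPM on HFHS, against 0.277, 0.492 and 1.16 CPM on control diet (log2 change 0.79 ± 0.34, edgeR adjusted p = 0.409). In CAST/EiJ they were 0.349, 0.629 and 0.998 CPM on HFHS, against 0.603, 1.06 and 1.53 CPM on control diet (log2 change -0.75 ± 0.34, edgeR adjusted p = 0.257). In C57BL/6J they were 0.116, 0.437 and 0.922 CPM on HFHS, against 0.146, 0.314 and 0.408 CPM on control diet (log2 change 0.68 ± 0.40, edgeR adjusted p = 1). The groups overlapped in each strain, and the difference in diet change between strains had an unadjusted edgeR p of 0.00609 and an adjusted p of 0.165.

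The diet values of Ttr rested on a few high libraries in NZO/HlLtJ and C57BL/6J. In CAST/EiJ its lowest, median and highest values were 0.182, 0.350 and 0.918 CPM on HFHS, against 0.319, 1.00 and 3.88 CPM on control diet. In NZO/HlLtJ it had a lowest, median and highest value of 0.259, 0.606 and 48.4 CPM on HFHS, against 0.339, 0.753 and 7.57 CPM on control diet. The fitted log2 change was 0.77 ± 0.91 (edgeR adjusted p = 0.861), while the median was lower on HFHS than on control diet. In C57BL/6J the values were 0.116, 0.710 and 1.31 CPM on HFHS, against 0.361, 0.844 and 19.1 CPM on control diet (log2 change -2.19 ± 0.96, edgeR adjusted p = 1).

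In CAST/EiJ, Calml4, a calmodulin-like protein, ran from 2.18 to 3.64 CPM on HFHS, against 2.02 to 9.09 CPM on control diet (log2 change -0.58 ± 0.23, edgeR adjusted p = 0.2). The highest value was that of the pituitary-rich library, and without it the log2 change was -0.21. Without CAST/EiJ control female library 2 instead, the change was -0.72 and passed the threshold (adjusted p = 0.034). Tmem72 was at 241.8 to 319.3 CPM on HFHS in CAST/EiJ, against 164.6 to 277.7 CPM on control diet (log2 change 0.23 ± 0.10, edgeR adjusted p = 0.235). The lowest of these was again the pituitary-rich library, without which the change was 0.17. The diet changes not yet given lay between -1.51, for Ttr in CAST/EiJ, and 0.91, for Slc4a5 in NZO/HlLtJ, and none passed the threshold.

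Between strains, several transcripts differed clearly and in both directions. CAST/EiJ against C57BL/6J called 6 of 10 members, 3 higher and 3 lower, where 55.5% of all tested genes were called (27.3% higher and 28.2% lower). NZO/HlLtJ against CAST/EiJ called 5 of 10, 4 higher and 1 lower (53.7% of all genes, 26.9% higher and 26.8% lower). NZO/HlLtJ against C57BL/6J called 2 of 10, both higher (26.6% of all genes, 12.5% higher and 14.1% lower). These shares lay near the background, and the comparisons share strains, so they are not independent. The median log2 change over the 10 members was -0.09, 0.10 and 0.22 in these 3 comparisons, against 0.00 over all genes in each. A strain difference in how well reads map to the reference genome, which is that of C57BL/6J, cannot be told apart from a difference in level.

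**Figure D4:**
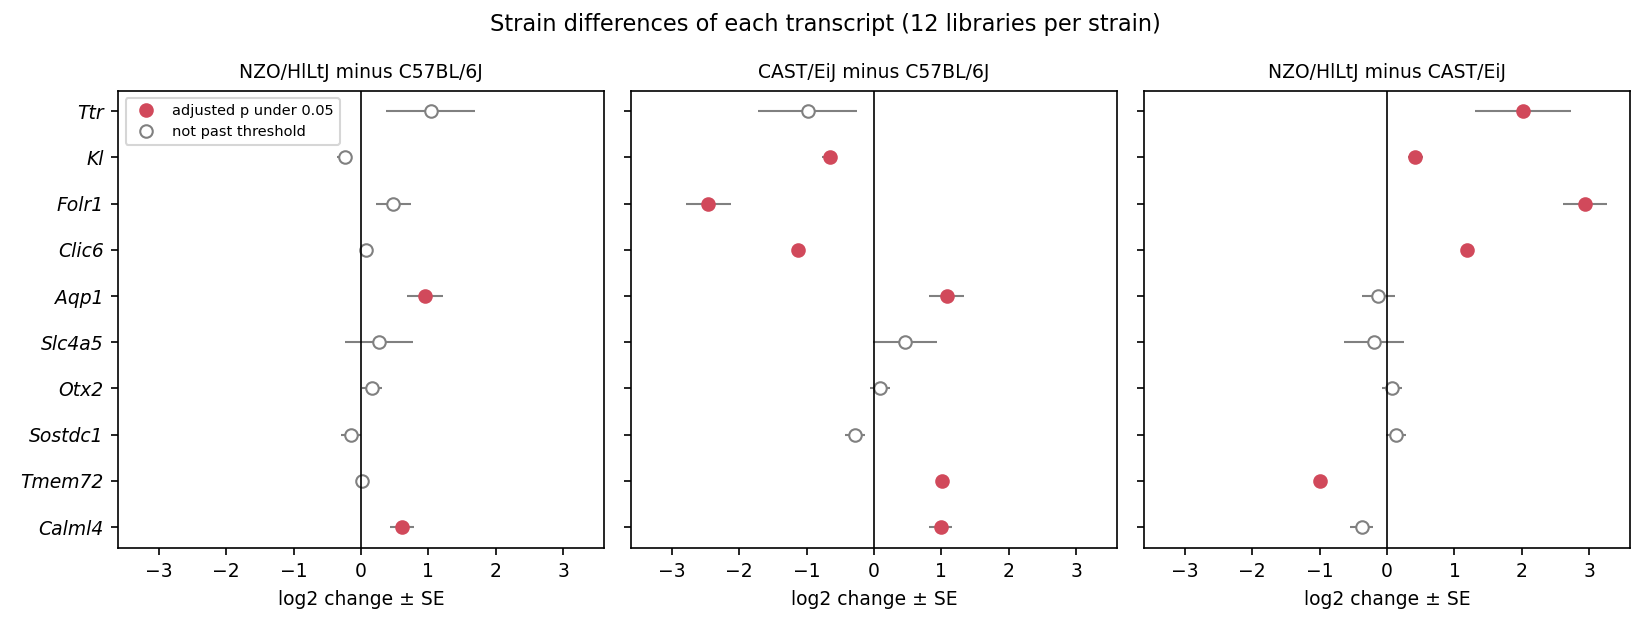
Log2 change ± standard error of each transcript between strains, each averaged over diets and sexes with 12 libraries per strain, with filled points where the edgeR adjusted p was under 0.05. Folr1, Clic6 and Tmem72 have called differences in both comparisons with CAST/EiJ and open points between NZO/HlLtJ and C57BL/6J.

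Clic6, of the chloride intracellular channel family, was lowest in CAST/EiJ. Its lowest, median and highest values were 10.98, 12.3 and 16.0 CPM in CAST/EiJ, against 23.7, 27.7 and 31.7 CPM in C57BL/6J, without overlap (log2 change -1.13 ± 0.06, edgeR adjusted p = 1.34e-16). In NZO/HlLtJ they were 26.0, 29.7 and 34.2 CPM, also clear of CAST/EiJ (log2 change 1.19 ± 0.06, edgeR adjusted p = 3.22e-17). NZO/HlLtJ and C57BL/6J did not differ past the threshold (log2 change 0.07 ± 0.06, edgeR adjusted p = 0.428). Clic6 lies on chromosome 16 at 92485736 to 92541243 on the plus strand (GRCm38), where 2410124H12Rik overlaps it on the same strand without sharing exons.

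Folr1, the folate receptor that loads folate into cerebrospinal fluid, was near the detection limit in CAST/EiJ. It ran from 0 to 0.549 CPM there with a median of 0.108 CPM and 2 libraries at 0, against 0.260, 0.604 and 1.04 CPM as the lowest, median and highest in C57BL/6J (log2 change -2.46 ± 0.33, edgeR adjusted p = 2.46e-07). NZO/HlLtJ had 0.554, 0.848 and 1.14 CPM, with no overlap with CAST/EiJ (log2 change 2.94 ± 0.32, edgeR adjusted p = 4.55e-09). The highest CAST/EiJ value was that of the pituitary-rich library, and without it the differences were -2.76 and 3.24. Folr1 lies on chromosome 7 at 101858331 to 101870788 on the minus strand and overlaps Anapc15 on the opposite strand. Whether the counting took strand into account is unstated.

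Kl encodes klotho, a co-receptor for the hormone FGF23 that is shed into cerebrospinal fluid. Its lowest and median values were 4.36 and 9.96 CPM in CAST/EiJ, where the highest just overlapped C57BL/6J, against 10.98 and 15.5 CPM with a highest of 18.7 CPM in C57BL/6J (log2 change -0.66 ± 0.11, edgeR adjusted p = 9.38e-06). NZO/HlLtJ lay between them at 8.20, 12.8 and 17.3 CPM, above CAST/EiJ by 0.42 ± 0.11 on the log2 scale (edgeR adjusted p = 0.00214). The difference of NZO/HlLtJ from C57BL/6J was -0.24 ± 0.11 (edgeR adjusted p = 0.112). Leaving out the pituitary-rich library, which was lowest in Kl, took that difference past the threshold (-0.24, adjusted p = 0.0423).

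Tmem72, a transmembrane protein gene, was highest in CAST/EiJ. It had 164.6, 260.9 and 319.3 CPM as lowest, median and highest in CAST/EiJ, against 101.7, 122.0 and 149.8 CPM in C57BL/6J, without overlap (log2 change 1.01 ± 0.07, edgeR adjusted p = 3.11e-13). NZO/HlLtJ had 108.4, 127.3 and 165.9 CPM (log2 change to CAST/EiJ -0.99 ± 0.07, edgeR adjusted p = 4.58e-13). A single NZO/HlLtJ library reached above the lowest CAST/EiJ one, the pituitary-rich library. Tmem72 was the member with fractional counts, in all 36 libraries, whereas the other 9 had whole counts throughout, so its level is uncertain where reads were divided between genes.

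The promoter of Tmem72 is shown as that of the most abundant member and the strongest one with a higher level in CAST/EiJ, at chr6:116716709-116717008 on the minus strand.
Tmem72: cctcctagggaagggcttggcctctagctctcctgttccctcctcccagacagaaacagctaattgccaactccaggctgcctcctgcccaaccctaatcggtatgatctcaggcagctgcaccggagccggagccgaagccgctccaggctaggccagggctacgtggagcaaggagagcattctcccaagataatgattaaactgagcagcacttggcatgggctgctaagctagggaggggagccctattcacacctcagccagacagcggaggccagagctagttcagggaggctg

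Aqp1 and Calml4 were higher in both other strains than in C57BL/6J. Aqp1 had a lowest, median and highest value of 0.277, 0.681 and 1.42 CPM in NZO/HlLtJ and 0.349, 0.762 and 1.53 CPM in CAST/EiJ, against 0.116, 0.388 and 0.922 CPM in C57BL/6J. The groups overlapped, and the log2 changes against C57BL/6J were 0.95 ± 0.26 for NZO/HlLtJ (edgeR adjusted p = 0.00635) and 1.08 ± 0.26 for CAST/EiJ (edgeR adjusted p = 0.000832). The NZO/HlLtJ difference was 0.78 without the 3 Ttr-rich libraries and then missed the threshold (adjusted p = 0.0643). The CAST/EiJ difference was 0.36 ± 0.37 on HFHS (edgeR adjusted p = 0.457) and 1.80 ± 0.37 on control diet (edgeR adjusted p = 0.000242).

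Calml4 had 1.86, 2.29 and 3.61 CPM in NZO/HlLtJ and 2.02, 2.79 and 9.09 CPM in CAST/EiJ, against 1.08, 1.53 and 2.57 CPM in C57BL/6J. The log2 changes were 0.61 ± 0.17 (edgeR adjusted p = 0.00815) and 0.99 ± 0.17 (edgeR adjusted p = 1.45e-05), with overlap in both. By diet, the CAST/EiJ difference was 0.65 ± 0.24 on HFHS and 1.33 ± 0.24 on control diet, both past the threshold. The NZO/HlLtJ difference was 0.73 ± 0.24 on HFHS and 0.49 ± 0.25 on control diet, where it missed the threshold (edgeR adjusted p = 0.19). The pituitary-rich library held the highest Calml4 value of all 36, and without it the CAST/EiJ difference was 0.80. Calml4 overlaps Gm10653 on the opposite strand.

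Ttr itself was called in 1 strain comparison, higher in NZO/HlLtJ than in CAST/EiJ (log2 change 2.02 ± 0.71, edgeR adjusted p = 0.0167). That call was lost when either of 2 single libraries was left out, and with the level of the other 9 members as a covariate the change turned to -2.01 (adjusted p = 0.047). Without NZO/HlLtJ control female library 2 the change was 1.29 (adjusted p = 0.145), and without control male library 2 it was 1.70 (adjusted p = 0.056). Without the 3 Ttr-rich libraries it was 0.30 (adjusted p = 0.692), and in limma it was 0.45 (adjusted p = 0.0686). By diet the difference from CAST/EiJ was 3.16 ± 1.102 on HFHS (edgeR adjusted p = 0.0205) and 0.87 ± 0.90 on control diet (edgeR adjusted p = 0.455).

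Against C57BL/6J, Ttr in NZO/HlLtJ differed by 1.03 ± 0.66 (edgeR adjusted p = 0.275), by 2.05 (adjusted p = 0.0147) without C57BL/6J control male library 3, and by -1.99 (adjusted p = 0.0295) with that covariate. The strain medians of Ttr, given above, differed far less than these values.

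Slc4a5, Otx2 and Sostdc1 were called in no strain comparison. Otx2 encodes the homeodomain factor that choroid plexus epithelium needs for its identity, and it had a median of 1.70 CPM in NZO/HlLtJ, 1.87 CPM in CAST/EiJ and 1.69 CPM in C57BL/6J, over 1.02 to 3.01 CPM in all. Its exons overlap those of Otx2os1 on the opposite strand and Gm49154 on the same strand, so its counts may include theirs. Sostdc1, a secreted antagonist of BMP and WNT signals, had medians of 1.24, 1.01 and 1.26 CPM in the same order. Its change in CAST/EiJ against C57BL/6J was -0.28 ± 0.15 (edgeR adjusted p = 0.117), and -0.34 (adjusted p = 0.0337) without C57BL/6J HFHS female library 3. Slc4a5 differed between strains by -0.19 to 0.46 on the log2 scale, with standard errors of 0.45 to 0.51.

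RefSeq promoter windows were given for 6 of the 10 members, 9 windows in all with 4 for Otx2. The core of OTX-class homeodomain factors, TAATCC, was searched on both strands. It occurred in 1 of the 9 windows, an internal start of Otx2, and in 7.06% of all 32851 windows. A forkhead core searched the same way, TAAACA, occurred in 0 of the 9 and in 13.4% of all windows. A match is a description of the letters only. The Otx2 window is shown for its match, which lies on the opposite strand 211 bases before the start and is in capitals, at chr14:48665060-48665359 on the minus strand.
Otx2: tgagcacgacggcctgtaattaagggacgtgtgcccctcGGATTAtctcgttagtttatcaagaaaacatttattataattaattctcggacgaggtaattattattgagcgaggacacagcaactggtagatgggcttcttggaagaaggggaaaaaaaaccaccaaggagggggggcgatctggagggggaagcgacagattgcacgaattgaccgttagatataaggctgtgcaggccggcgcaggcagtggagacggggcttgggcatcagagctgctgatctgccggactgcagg

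Neighbouring genes of members with a strain difference were looked up, with 27.3% of all tested genes higher and 28.2% lower in CAST/EiJ than in C57BL/6J as the background. Within 200 kb of Clic6, 2 of 5 tested genes were higher and 2 lower in CAST/EiJ than in C57BL/6J, and the one with the strongest difference was Kcne2. It ran from 0 to 0.0530 CPM in CAST/EiJ with 8 of 12 libraries at 0, and it had 0.0252, 0.173 and 0.780 CPM as the lowest, median and highest in NZO/HlLtJ, against 0.0289, 0.164 and 0.521 CPM in C57BL/6J. Within 200 kb of Folr1, 5 of 14 were higher and 2 lower, and among the lower was Folr2, a related folate receptor. Folr2 ran from 0 to 0.174 CPM in CAST/EiJ with a median of 0.0598 CPM and 2 libraries at 0, and it had 0.0757, 0.269 and 0.734 CPM in NZO/HlLtJ, against 0.126, 0.285 and 0.481 CPM in C57BL/6J. Both neighbours were picked after their values were seen. The fitted log2 changes in CAST/EiJ against C57BL/6J were -4.46 for Kcne2, which depends on the handling of zeros, and -1.97 for Folr2. Within 200 kb of Tmem72, 0 of 4 were higher and 2 lower, unlike Tmem72 itself. At the same distance from Aqp1, 3 of 4 were higher and 0 lower, and from Calml4 3 of 4 were higher and 1 lower. Near Kl, 0 of 2 were higher and 0 lower.

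**Figure D5:**
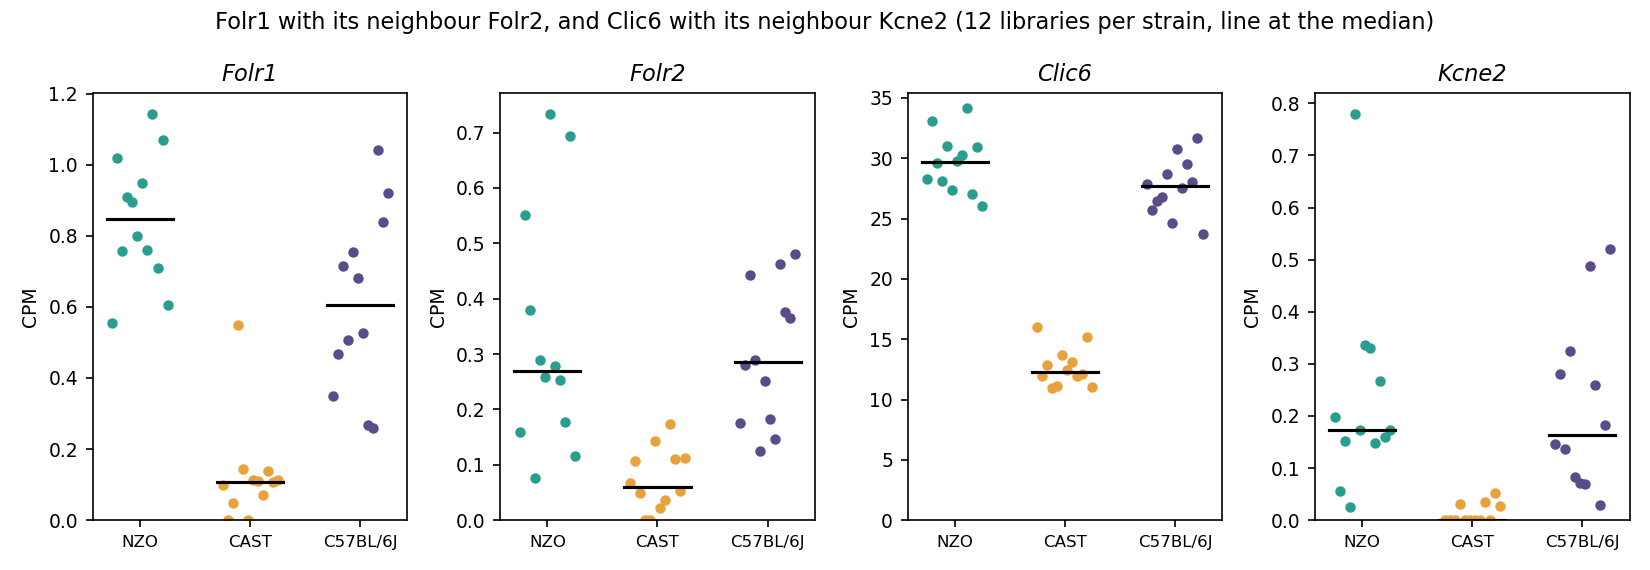
CPM of Folr1, Folr2, Clic6 and Kcne2 in 12 libraries per strain, with a line at the median and axes from 0. In each panel the CAST/EiJ median is the lowest, and for Clic6 all CAST/EiJ points lie clear of the other strains.

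Between females and males, 0 of the 10 transcripts were called by edgeR (0.175% of all genes, 0.105% higher and 0.0698% lower), DESeq2 or limma. By edgeR 1 member, Ttr, had an unadjusted p under 0.05, as did 1788 of the 20053 tested genes. Ttr had a lowest, median and highest value of 0.229, 0.976 and 48.4 CPM in 18 female libraries, against 0.116, 0.524 and 19.1 CPM in 18 male libraries (log2 change 1.19 ± 0.57, edgeR adjusted p = 0.556). The ranges overlapped almost throughout.

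The further choroid plexus list, of which 38 genes were tested, set the members beside other genes of the same epithelium. In CAST/EiJ against C57BL/6J, 7 were higher and 18 lower, where 27.3% of all genes were higher and 28.2% lower, and the median log2 change was -0.17 against 0.00 over all genes. Those with the smallest p were Col9a3, a collagen chain (-1.31 ± 0.07), Lbp, a lipopolysaccharide-binding protein (-1.16 ± 0.10), Enpp2, the autotaxin gene (-0.74 ± 0.07), and Slc29a4, a monoamine transporter (-0.38 ± 0.04). Kcne2, given above, is on this list too and had the most negative fitted change. In NZO/HlLtJ against C57BL/6J, 5 were higher and 6 lower, where 12.5% of all genes were higher and 14.1% lower. Among the 5 was Car12, a carbonic anhydrase (0.97 ± 0.10). In NZO/HlLtJ against CAST/EiJ, 16 were higher and 6 lower, where 26.9% of all genes were higher and 26.8% lower. Between sexes, and in the diet comparisons other than that of NZO/HlLtJ alone, 0 were called, where at most 0.175% of all genes were. For diet in NZO/HlLtJ, where 0.105% of all genes were higher, 1 was higher, the carbonic anhydrase gene Car14 (0.54 ± 0.12, edgeR adjusted p = 0.0433). Without the 3 Ttr-rich libraries 0 genes of the whole table were called for diet in that strain, with fewer libraries in the fit. Car14 itself was at 10.3 and 11.7 CPM in the Ttr-rich pair of that group, inside the 9.22 to 14.4 CPM of its other 4 libraries. Summed over 40 genes, the list came to 1213 to 1368 CPM in CAST/EiJ. It came to 1247 to 1463 CPM in NZO/HlLtJ and 1334 to 1468 CPM in C57BL/6J, with much of each sum from Vat1l. Beside it, all 10 genes of a myelin list were lower in CAST/EiJ than in C57BL/6J, with a median log2 change of -0.735. The part of other cell types in the values of the choroid plexus list, Enpp2 among them, was not tested.

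Markers of neighbouring ventricular cells were set beside the members, with 55.5% of all genes called in CAST/EiJ against C57BL/6J. Of 20 genes of ependymal cells and motile cilia, 15 were higher and 4 lower in CAST/EiJ than in C57BL/6J, with a median log2 change of 0.55. Rsph1, a radial spoke protein, was higher by 2.76 ± 0.11, and Pifo, a ciliary protein, had a log2 change of -4.70 ± 0.32. The list summed to 272.4 to 662 CPM in CAST/EiJ, against 178.5 to 240.3 CPM in C57BL/6J, without overlap. The highest CAST/EiJ sum was that of the pituitary-rich library, and the next was 358.3 CPM. Of 14 tanycyte genes, 2 were higher and 4 lower, and of 18 genes of choroid stroma and leptomeninges 2 were higher and 3 lower. Stromal genes summed to 198.7 to 521.5 CPM in CAST/EiJ, 137.9 to 614.4 CPM in NZO/HlLtJ and 138.4 to 605.5 CPM in C57BL/6J. The part of these cells in the member values was not tested.

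Genes that work with the members in their pathways are given beside the same background, 55.5% of all genes called in CAST/EiJ against C57BL/6J and about as many higher as lower. Of 9 tested genes of the klotho and FGF co-receptor list, 6 were higher and 2 lower in CAST/EiJ than in C57BL/6J. Klb, the sister co-receptor, was higher by 0.68 ± 0.14 and the receptor gene Fgfr4 by 1.02 ± 0.22, while Fgf23 was at -1.25 ± 0.27. Of 10 folate genes, 3 were higher and 4 lower. Shmt1, a serine hydroxymethyltransferase, was higher by 1.30 ± 0.11. Each of these 4 named genes had an edgeR adjusted p under 0.05.

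Around Ttr's cargoes, 3 of 16 genes of thyroid hormone and retinol handling were higher and 3 lower in CAST/EiJ than in C57BL/6J, a smaller share than the 55.5% of all genes. Stra6, the retinol uptake receptor, was higher by 1.34 ± 0.13, Dio3, which inactivates thyroid hormone, by 1.22 ± 0.26, and Crabp1, a retinoic acid-binding protein, was at -0.94 ± 0.10. In NZO/HlLtJ against C57BL/6J, where 26.6% of all genes were called, 4 were higher and 4 lower, with Rbp4, the retinol-binding protein that transthyretin carries, at 0.69 ± 0.14 and Dio2, which activates thyroid hormone, at 0.60 ± 0.14. Of 16 WNT and BMP antagonist genes, 4 were higher and 3 lower in CAST/EiJ than in C57BL/6J, with the co-receptor gene Lrp4 at 0.27 ± 0.04. Of 15 genes of epithelial ion and water transport, 4 were higher and 3 lower, with Clic4, of the family of Clic6, at -0.78 ± 0.06. In these 5 pathway lists 0 genes were called for diet in any strain. Within a single strain the diet test called at most 0.145% of all tested genes. A count of 0 in lists this short therefore does not set them apart from other genes.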

How the data were processed

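Bulk hypothalamus RNA was sequenced as 36 polyadenylated-RNA libraries, per the labels' protocols. The authors deposited expected counts per gene, not scaled to depth, and a table of log2 values after a variance-stabilizing transformation, credited to DESeq2 in the submitters' processing notes. Those notes name GRCm38 as the genome build. Aligner, counting tool, annotation release and strand setting: not given in the sources used here. The design assumed whole counts, and 21.4% of values were not whole, so expected counts were rounded. Strains, diets and sexes were compared with edgeR 4.0.16 (quasi-likelihood F-test, TMM, filterByExpr, 12 group means, 24 residual degrees of freedom) in R 4.3.3, adjusted by Benjamini-Hochberg over all 20053 tested genes and called at adjusted p under 0.05. The common biological coefficient of variation was 12.1%. CPM are counts over the library total, and TPM use exon lengths of GENCODE M21, which held 24108 of 24265 gene identifiers. Likeness and correlations use log2 CPM, the likeness rule taking genes with a mean of at least 1 CPM. Alternatives used DESeq2 1.42.0, limma 3.58.1 on the deposited log2 values, other scalings, filters and designs. The scripts were tested on simulated data. Named genes were all members, the 15 genes most like them, of which the first 5 are given, and up to 4 genes of a list with the smallest p. Members and lists were chosen with earlier results of these data known.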

Additional observations from a re-analysis of the deposited data

Results flagged for a closer look

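In 5 of 60 member-by-group combinations of 6 libraries, the highest or lowest library stood apart from the other 5 by Dixon's criterion, which chance meets in about 1 in 20 groups. Ttr in C57BL/6J on control diet was at 19.1 CPM in male library 3, with the others at 0.361 to 2.30 CPM. Calml4 in NZO/HlLtJ on control diet was at 3.14 CPM in female library 2, with the others at 1.86 to 2.22 CPM. The remaining flags fell on CAST/EiJ control female library 1, the library rich in pituitary transcripts. Kl was at 4.36 CPM there and at least 9.16 CPM in the other 5, Folr1 was at 0.549 CPM against 0 to 0.112 CPM, and Calml4 was at 9.09 CPM against 2.02 to 3.65 CPM. The part of pituitary RNA in these values was not tested. The pair of NZO/HlLtJ HFHS libraries high in Ttr was not picked out by the criterion, since each lies near the other.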

How the results depend on the processing

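No paired analysis was possible because the library numbers follow the order of deposition and pair nothing across groups. Over 4025 values of single members under all alternatives, 3994 kept their side of the threshold. Among them 111 uncalled changes had the opposite sign. Of the 4025 values, 3240 came from leaving out a single library, and comparisons in which 0 members were called are included. The count of called members for NZO/HlLtJ minus C57BL/6J was 2, and 1 under the strict filter of 1 CPM in 18 libraries, which removed Aqp1. With the strains compared on 1 diet, in the fit of all 36 libraries, the count was 1 on HFHS and 0 on control diet. For NZO/HlLtJ minus CAST/EiJ the count was 5, and 3 under the strict filter, which removed Ttr and Folr1. The fit without the 3 Ttr-rich libraries was a choice made after seeing the data. With single libraries left out, the counts ran from 2 to 3 for NZO/HlLtJ minus C57BL/6J, 6 to 7 for CAST/EiJ minus C57BL/6J, 4 to 6 for NZO/HlLtJ minus CAST/EiJ and 0 to 1 for diet in CAST/EiJ, and stayed at 0 for the other diet, sex and interaction comparisons. With the level of the other 9 members as a covariate, Ttr reversed to -1.99 for NZO/HlLtJ minus C57BL/6J and to -2.01 for NZO/HlLtJ minus CAST/EiJ, both past the threshold, and the cause was not tested. Calml4 in NZO/HlLtJ minus CAST/EiJ, at -0.38 and an edgeR adjusted p of 0.0564, passed under DESeq2, an additive sex term and the covariate. It also passed in the comparison on control diet (-0.84) and in 9 of the 36 single-library fits. Aqp1 in NZO/HlLtJ minus C57BL/6J missed the threshold on either diet alone, at 1.002 on HFHS and 0.90 on control diet. The Ttr relations that passed numbered 1 by Pearson and 0 by rank. Of the 15 genes most like the members, 7 were shared by rank correlation and 14 without the 2 libraries of highest summed member CPM. Low counts limit Slc4a5, Folr1 in CAST/EiJ and Kcne2.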
